A study of Mus musculus with 6 samples.

Results

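The genes described here are 53 mouse genes of DNA replication, covering the licensing of origins, the firing of origins, the moving fork and the chromatin assembly behind it. They were chosen as the rows of the deposited normalized expression table whose symbol was on a list of replication genes. Of the 53 genes listed, 52 had such a row, out of 12179 genes in that table and 27179 in the table of read counts. The missing gene, Gins3, a subunit of the GINS part of the replicative helicase, had 0 reads in each of the 6 libraries.

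The study asked how losing 1 allele of Foxm1, a forkhead transcription factor of proliferating cells, alters hematopoietic stem cells (HSCs), the marrow cells that renew all blood lineages. RNA-Seq was performed on long-term HSCs (LT-HSCs) sorted as CD150+CD48-LSK cells from bone marrow of C57BL/6 mice. There were 3 libraries with the genotype WT and 3 with the genotype Foxm1 heterozygous, called Foxm1 HET here, all from mice of 8 weeks of age with no treatment named in the labels. The titles of the Foxm1 HET libraries name a floxed allele (FoxM1flPlus) and no Cre driver, which is how the study writes its control mice without Cre, so the groups here rest on the genotype labels. In the study, mice with a floxed allele are crossed to Tie2-Cre, which acts in endothelial and blood-forming cells, or to Mx1-Cre, and which of them was used for the RNA-Seq, and whether the WT mice carried a floxed allele as controls elsewhere in the study do, is not stated in its section on RNA-Seq. Foxm1 had 1182, 2615 and 2942 reads in WT libraries 1 to 3 and 659, 5 and 742 reads in Foxm1 HET libraries 1 to 3, so the genotypes did not overlap. Its fitted log2 fold change of -3.30 did not pass the quasi-likelihood test of edgeR (Benjamini-Hochberg) (adjusted p = 0.961).

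Before S phase, the origin recognition complex (ORC), Cdc6 and Cdt1 load the ring-shaped MCM2-7 helicase onto DNA, which licenses an origin. The Cdc7-Dbf4 kinase and cyclin-dependent kinases then fire the origin by joining Cdc45 and GINS to MCM2-7 as the CMG helicase, and polymerases alpha, delta and epsilon copy the strands with the sliding clamp PCNA. Adult LT-HSCs are known for residing mostly outside the cell cycle, and transcription of many of these genes is driven by E2F factors as cells enter S phase.

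Libraries held 14573002 to 25798509 counted reads, and 4467 to 9894 genes had at least 10 reads. Foxm1 HET library 2 was the shallowest and had the fewest detected genes, and WT library 3 had the next fewest, 5963. The biological coefficient of variation estimated by edgeR was 1.656. Of 8195 genes tested between the genotypes, 27 passed an adjusted p of 0.05, or 0.329%. Of the genes of the sort, Kit was read in every library, with 10720, 41801 and 14991 reads in WT against 30282, 18773 and 48031 in Foxm1 HET. Slamf1, which encodes CD150, had 2, 1572 and 0 reads in WT against 8, 0 and 543 in Foxm1 HET, while Cd48, which the sort excludes, had 221, 6608 and 1 reads in WT against 1285, 5 and 22 in Foxm1 HET. The 11 neutrophil and monocyte markers found summed to 18500 to 37700 TPM (transcript level, from reads corrected for gene length and library size) in WT against 4730 to 24200 in Foxm1 HET, the 12 LT-HSC markers to 1420 to 3790 and 2510 to 3390, and 7 of 10 lymphoid markers were at 0 reads in every library. The 6 markers that the sort excludes summed to 355 to 1140 TPM in WT against 158 to 668 TPM in Foxm1 HET, the 9 erythroid markers found to 480 to 1060 and 450 to 1300, the 10 lymphoid to 0.355 to 150 and 0.121 to 12.5, and the 6 megakaryocyte markers to 8.12 to 111 and 2.75 to 57.4. The part of these markers in the levels of the replication genes was not tested. In bulk samples such as these, fewer cells of a type and less RNA per cell cannot be told apart.

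The promoters of the replication genes were set beside their values, since E2F factors are known to drive many of them. RefSeq windows of GRCm38.p6, from 250 bases before to 50 after the start of the transcript, matched 44 of the 53 genes by gene identifier, and the first window listed was searched on both strands. An E2F motif (TTTCGCGC, TTTGGCGC, TTTCCCGC or TTTGCCGC) was found in 15 of the 44 windows (34.1%), compared with 4.7% of 6500 windows of tested genes and 2.3% of all 27025 windows. The letters CCAAT stood in 56.8% of the members' windows and 37.9% of those of tested genes. The letters TTTGAA, a cell cycle gene homology region (CHR) at which MuvB complexes are known to recruit FOXM1, stood in 13.6% and 12%, and the forkhead letters TAAACA in 2.3% and 8.4%. These are matches of letters and not sites of binding.

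The 250 bases before the start are shown for the helicase genes Mcm3, Mcm5, Mcm6 and Mcm7, whose windows hold 2 or more E2F matches each, and for Etaa1, which has none and is one of the genes whose genotypes did not overlap. Capitals mark E2F and CCAAT matches on either strand. The windows are chr1:20820313-20820562 for Mcm3, chr8:75109259-75109508 for Mcm5, chr1:128359706-128359955 for Mcm6, chr5:138171884-138172133 for Mcm7 and chr11:17953876-17954125 for Etaa1, on the minus strand except for Mcm5, and each is written 5′ to 3′ along its gene.
Mcm3: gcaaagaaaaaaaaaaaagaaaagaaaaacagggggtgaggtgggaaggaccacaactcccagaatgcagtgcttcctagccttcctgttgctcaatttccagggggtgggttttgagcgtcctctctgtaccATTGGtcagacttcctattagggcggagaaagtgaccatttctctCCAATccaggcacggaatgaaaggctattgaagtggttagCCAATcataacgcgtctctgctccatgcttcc
Mcm5: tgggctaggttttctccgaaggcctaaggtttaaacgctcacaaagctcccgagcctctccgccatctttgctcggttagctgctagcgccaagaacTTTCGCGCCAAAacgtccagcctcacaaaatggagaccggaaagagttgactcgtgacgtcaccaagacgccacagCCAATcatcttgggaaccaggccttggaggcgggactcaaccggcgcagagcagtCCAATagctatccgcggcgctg
Mcm6: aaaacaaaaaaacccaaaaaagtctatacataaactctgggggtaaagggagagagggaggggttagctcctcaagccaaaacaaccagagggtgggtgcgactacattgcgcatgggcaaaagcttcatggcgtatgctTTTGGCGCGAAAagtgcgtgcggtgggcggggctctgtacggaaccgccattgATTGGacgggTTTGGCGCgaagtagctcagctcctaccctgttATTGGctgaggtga
Mcm7: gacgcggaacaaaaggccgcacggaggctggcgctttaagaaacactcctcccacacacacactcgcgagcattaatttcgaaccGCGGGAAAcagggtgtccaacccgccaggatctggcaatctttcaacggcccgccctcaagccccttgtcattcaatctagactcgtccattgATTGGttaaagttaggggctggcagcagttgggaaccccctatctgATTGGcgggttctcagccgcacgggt
Etaa1: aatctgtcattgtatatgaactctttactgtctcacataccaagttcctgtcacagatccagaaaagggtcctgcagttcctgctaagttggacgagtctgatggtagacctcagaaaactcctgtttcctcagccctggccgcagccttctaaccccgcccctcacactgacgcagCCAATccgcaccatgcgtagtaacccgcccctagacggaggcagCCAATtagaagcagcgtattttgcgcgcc
In Mcm6 an E2F match on each strand overlapped to form a mirrored element 110 bases before the start, with a further match 47 bases before it, and Mcm5 had the same overlapping arrangement 153 bases before its start. The E2F matches of Mcm3 began 20 and 39 bases past the start and so lie outside the stretch printed, which holds 3 CCAAT matches. Mcm7 had an E2F match 165 bases before and another 17 bases past the start. The window listed for Timeless lies inside the gene as the count table draws it, and it is not shown.

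The replication genes were detected unevenly, and the libraries of a genotype differed more than the genotypes did. At least 10 reads were counted for 48, 37 and 26 of the 52 genes in WT libraries 1 to 3 and for 52, 20 and 49 in Foxm1 HET libraries 1 to 3. The mean was 37.0 ± 11 genes in WT and 40.3 ± 17.7 in Foxm1 HET (SD, n = 3 each), a difference of 3.33 that was smaller than either SD. As a share of the 52, this was 92.3%, 71.2% and 50% in WT, with 100.0%, 38.5% and 94.2% in Foxm1 HET. Of all genes of the normalized table, 63.8%, 55.6% and 48.6% reached 10 reads in WT, with 79.2%, 36.4% and 75.8% in Foxm1 HET. The share of replication genes was therefore above that of all genes in every library, by a margin that was narrow in WT library 3 and Foxm1 HET library 2.

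**Figure D1:**
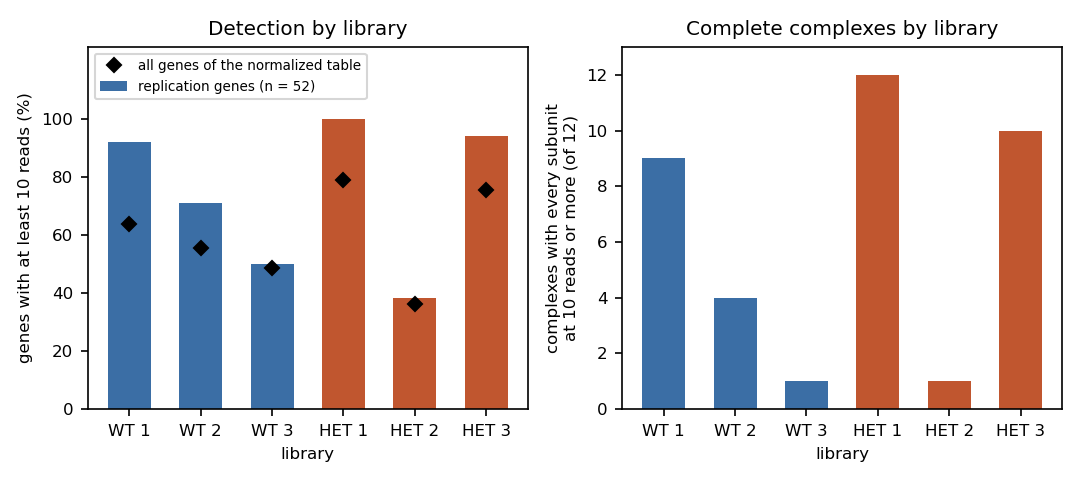
Detection of the replication genes in each library. Left, bars give the percentage of the 52 genes with at least 10 reads and diamonds the percentage of all 12179 genes of the normalized table; right, bars give how many of 12 complexes had every subunit at 10 reads or more (blue, WT; orange, Foxm1 HET). WT library 3 (50%) and Foxm1 HET library 2 (38.5%) are the lowest, and Foxm1 HET library 1 has all 12 complexes complete.

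The amount of replication message was likewise lowest in WT library 3 and Foxm1 HET library 2. Summed over the genes, it was 1850, 2360 and 1480 TPM in WT against 2430, 1160 and 2430 TPM in Foxm1 HET. The median gene was at 11.5, 7.49 and 0.512 TPM in WT against 25.0, 0.194 and 21.1 TPM in Foxm1 HET. The 5 highest genes made up 37.9%, 63.1% and 53.4% of the sum in WT against 43.5%, 69.3% and 41.6% in Foxm1 HET, so that in Foxm1 HET library 2 most of the replication message came from a handful of genes. Each genotype thus had a library with nearly all genes present and a library whose median gene was under 1 TPM.

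Individual genes had many reads in 1 library and almost none in another library of the same genotype. The study's methods give a yield of only nanograms of RNA, and its part in these values was not tested. At least 100 reads in 1 library and at most 3 in another library of the same genotype were seen for 22 of the 52 genes in WT (42.3%) and 27 in Foxm1 HET (51.9%), compared with 32.5% and 42.6% of all genes of the normalized table. On the log2 CPM scale (reads corrected for library size with TMM factors), the median SD between libraries was 3.37 in WT and 3.11 in Foxm1 HET over the 50 replication genes tested, and the median size of the difference between the group means was 1.72. Over all genes tested these values were 3.0, 2.81 and 1.62. Under 10 reads in both WT library 3 and Foxm1 HET library 2 were counted for 17 genes, among them all 3 subunits of RPA.

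**Figure D2:**
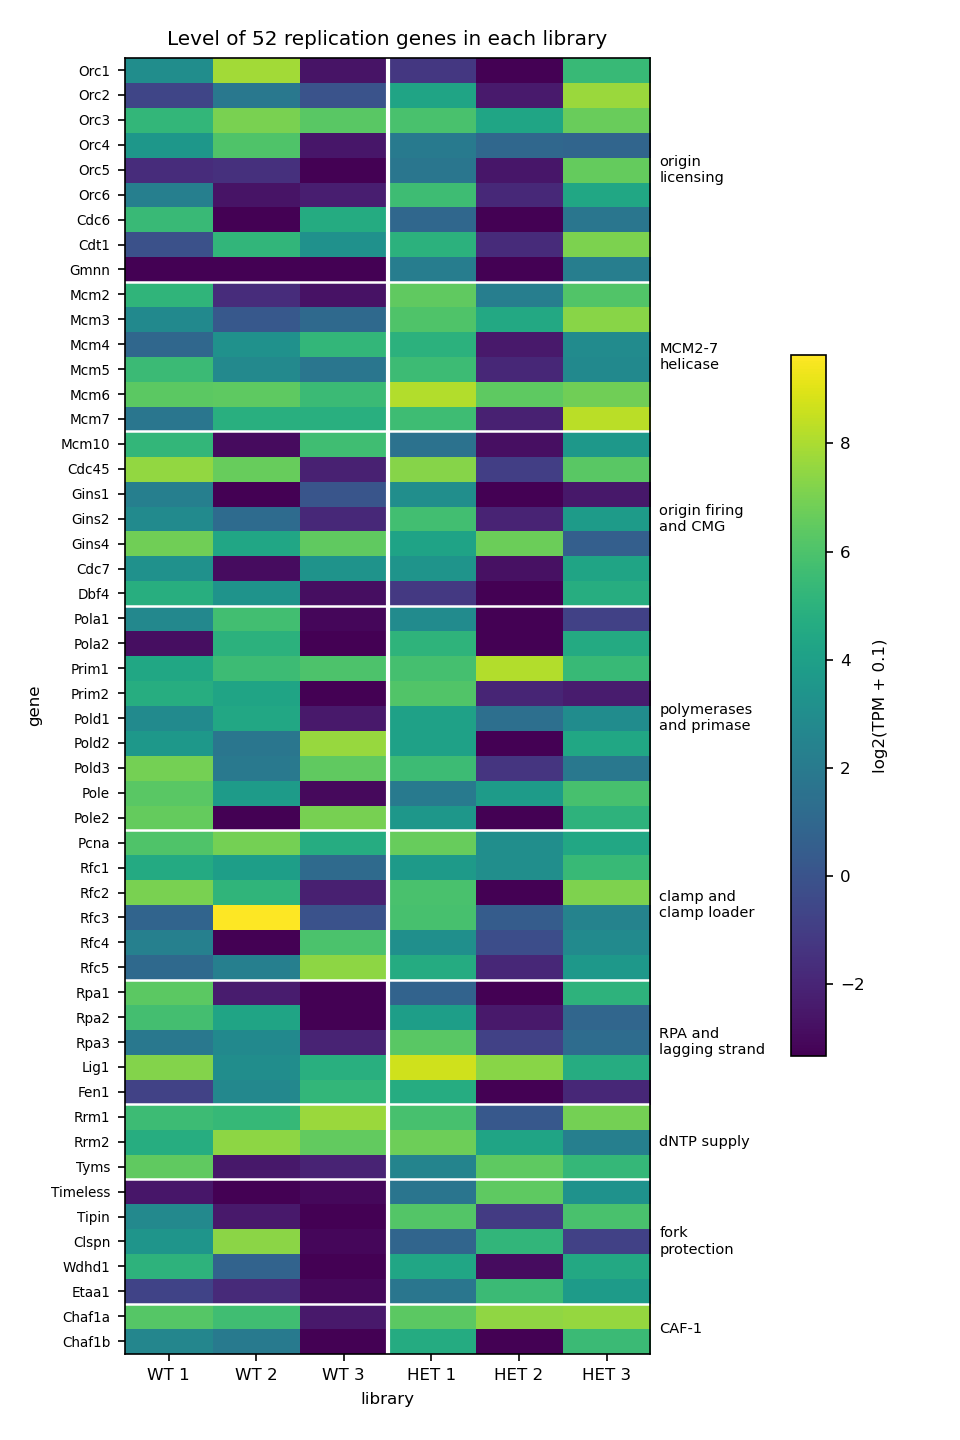
Level of the 52 replication genes (rows, grouped by role) in the 6 libraries (columns), as log2(TPM + 0.1). Dark cells are genes at or near 0; WT library 3 and Foxm1 HET library 2 hold the most dark cells, and Mcm6, Orc3, Prim1 and Lig1 are among the 11 genes with at least 10 reads in every library.

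Between the genotypes, no replication gene passed the test. Of the 50 genes tested, 21 were fitted higher and 29 lower in Foxm1 HET, and the number with an adjusted p under 0.05 was 0 by the quasi-likelihood test of edgeR (Benjamini-Hochberg), by limma-voom, by DESeq2 and by limma on the normalized table. DESeq2 gave no adjusted p for some of these genes, so its 0 does not cover them. Among them were Orc1, Prim1, Rfc3, Timeless and Etaa1. Timeless and Etaa1, both higher in Foxm1 HET, passed the filter on low counts through their reads in that genotype. At an unadjusted p under 0.05 edgeR gave these 2 genes, against 6.03% of all genes in either direction and 3.44% higher in Foxm1 HET. At that threshold DESeq2 gave 3 genes (Mcm3, Orc2 and Cdc6) against 10.1% of all genes, and limma-voom 1 (Timeless) against 3.31%. Limma on the normalized values gave 3 of 52 (Mcm3, Mcm2 and Tipin) against 4.73%, so the tools named partly different genes. Since DESeq2 gave Timeless and Etaa1 no adjusted p, their absence from its 3 genes may not be a difference between the tools. Of all genes tested, 45.4% were fitted higher in Foxm1 HET. The median log2 fold change was -0.33 for the replication genes and -0.26 for all genes with TMM scaling, and 0.01 and 0.10 with scaling by library size only, where 26 replication genes were higher and 24 lower. Higher and lower are counted here against 0, and the shift of all genes should be read beside them. In edgeR's fit with TMM scaling, the median standard error (SE) of a replication gene was 2.66 on the log2 scale. Orc5, an ORC subunit, and Gmnn, which encodes the licensing inhibitor geminin, had too few reads in too many libraries to be tested.

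For 3 genes, Mcm3, Timeless and Etaa1, the libraries of the genotypes did not overlap on the log2 CPM scale, and all 3 were higher in Foxm1 HET. Over all genes tested 8.68% did not overlap, 4.12% being higher and 4.55% lower in Foxm1 HET. The share of the replication genes, 3 of 50, is thus near the background. In the exact permutation test (two-sided) each of the 3 had p = 0.1, the smallest that 3 against 3 libraries can give. Any gene without overlap on this scale gets that p, so the test adds nothing to the count.

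**Figure D3:**
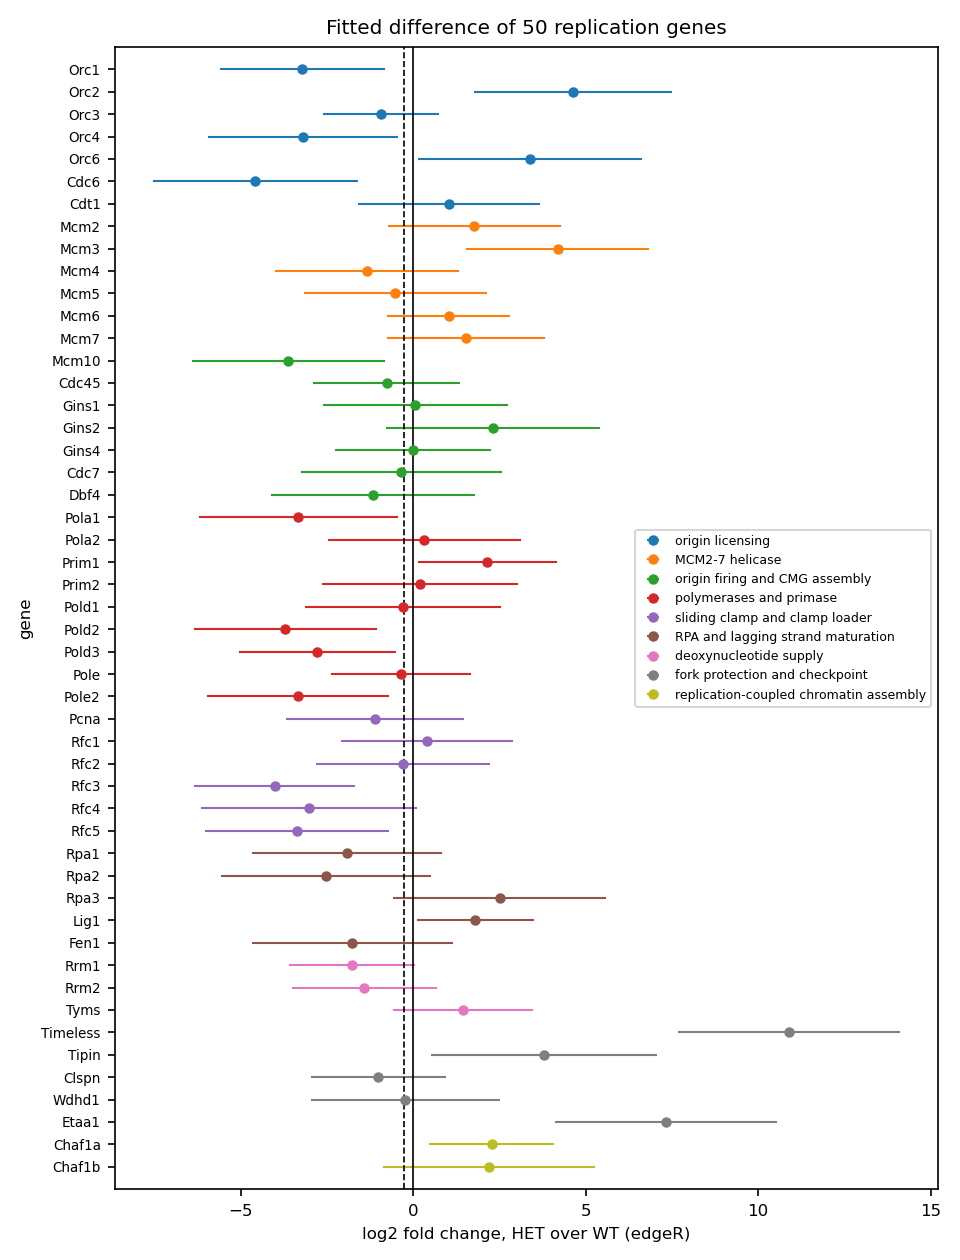
Fitted log2 fold change (Foxm1 HET over WT, edgeR) of the 50 replication genes tested, coloured by role, with bars of 1 SE. The solid line marks 0 and the dashed line the median of all genes, -0.26; Timeless (10.89) and Etaa1 (7.32) lie farthest to the right, and no gene passed the adjusted test.

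The sign of the median of each role given in the following was the same with TMM, RLE and library size scaling. These signs are against 0, while the median of all genes was -0.26, -0.13 and 0.10 with these scalings. The roles were not followed with a library left out. Among the 9 licensing genes, 3 of the 7 tested were fitted higher and 4 lower and had a median log2 fold change of -0.93. Orc3, a core ORC subunit, was the only one of them with at least 10 reads in every library, having 2201, 8113 and 5397 reads in WT against 4655, 831 and 6940 in Foxm1 HET. Orc1, the ORC subunit that comes and goes with the cell cycle, had 221, 6853 and 2 reads in WT against 12, 0 and 1390 in Foxm1 HET, so its level of 229 TPM in WT library 2 stood beside 0.0619 TPM in WT library 3. All 6 ORC subunits reached 10 reads only in Foxm1 HET libraries 1 and 3. Cdc6, an ATPase that helps to load the helicase, was at 0 reads in WT library 2 and Foxm1 HET library 2 and at 1917 reads in WT library 1. Gmnn was read only in Foxm1 HET libraries 1 and 3, with 52 and 48 reads, and was at 0 in the other 4 libraries.

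The MCM2-7 helicase genes were 4 higher and 2 lower and had a median log2 fold change of 1.27. Mcm3 (chromosome 1, 20803014 to 20820213, minus strand, 17 exon blocks) had 185, 31 and 63 reads in WT against 2382, 431 and 4969 in Foxm1 HET, or 6.95, 1.08 and 2.03 TPM against 67.9, 22.5 and 159 TPM. Its log2 CPM was 1.88 ± 1.27 in WT and 6.31 ± 0.51 in Foxm1 HET (SD, n = 3 each). All 3 Foxm1 HET libraries lay above all WT libraries, also in the shallow library 2. The fitted log2 fold change was 4.18 ± 2.66 (SE) with an adjusted p of 0.941 in the quasi-likelihood test of edgeR (Benjamini-Hochberg). For Mcm3, DESeq2 gave an adjusted p of 0.059 and limma-voom an adjusted p of 1.

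Mcm6, the most abundant helicase subunit in 5 of the 6 libraries, was at 81.5, 85.1 and 45.7 TPM in WT against 283, 84.3 and 114 TPM in Foxm1 HET. Mcm7 exceeded it in Foxm1 HET library 3, at 309 TPM, and was at 3.30, 28.6 and 28.6 TPM in WT against 48.6 and 0.126 TPM in Foxm1 HET libraries 1 and 2, and 23.27% of its 50-base stretches occur in other genes too. The subunits act as a ring with 1 copy of each, yet their messages differed widely within a library. In Foxm1 HET library 2, Mcm6 stood at 1623 reads while Mcm4, Mcm5 and Mcm7 had 2, 4 and 2 reads. In WT library 3, Mcm2 had 2 reads and Mcm4 1489. Summed over the 6 subunits, the level was 175, 131 and 118 TPM in WT against 566, 112 and 666 TPM in Foxm1 HET, so Foxm1 HET libraries 1 and 3 lay above the WT range and library 2 below it.

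**Figure D4:**
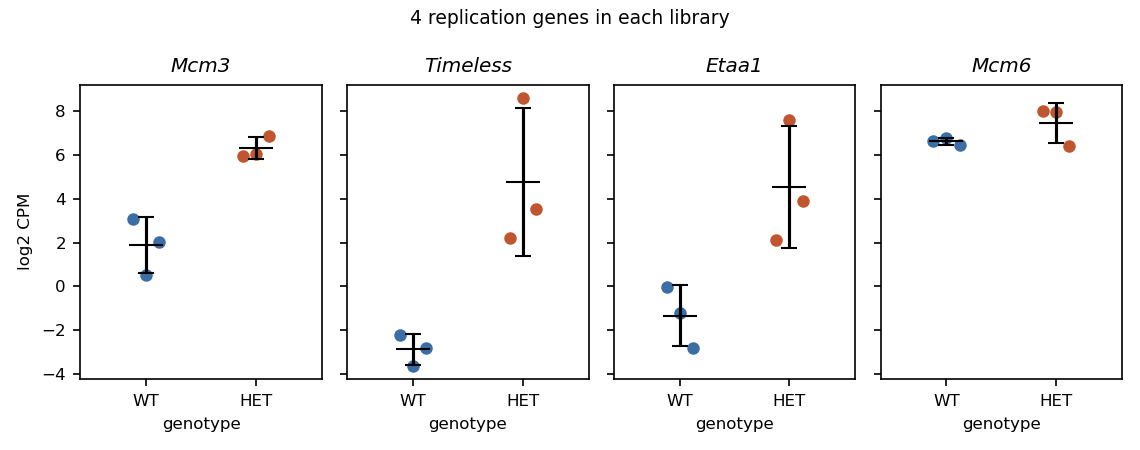
Log2 CPM of Mcm3, Timeless, Etaa1 and Mcm6 in each library (points; blue, WT; orange, Foxm1 HET), with the mean (wide mark) and SD (bars), n = 3 per genotype. In the first 3 genes every Foxm1 HET library lies above every WT library, and in Mcm6 they overlap.

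The genes of origin firing and CMG assembly were 2 higher and 5 lower of 7 tested and had a median log2 fold change of -0.35. Cdc45, which completes the CMG helicase, was among the highest replication genes where it was read, at 186 and 98.2 TPM in WT libraries 1 and 2 and 153 and 80.6 TPM in Foxm1 HET libraries 1 and 3. It had 3 reads in WT library 3 and 6 in Foxm1 HET library 2. Gins4, a GINS subunit, was present throughout, with 1430, 270 and 1275 reads in WT against 298, 952 and 21 in Foxm1 HET. Both subunits of the firing kinase, Cdc7 and Dbf4, reached 10 reads in WT library 1 and in Foxm1 HET libraries 1 and 3.

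The polymerase and primase genes were 3 higher and 6 lower and had a median log2 fold change of -0.36. Prim1, the catalytic subunit of primase, which lays down RNA primers, had 293, 716 and 1049 reads in WT against 1032, 2869 and 702 in Foxm1 HET, and it alone of the polymerase genes had at least 10 reads in every library. It was the only polymerase alpha-primase subunit above 10 reads in WT library 3 and in Foxm1 HET library 2, where it stood at 282 TPM. Pold3, an accessory subunit of polymerase delta, had 3352, 111 and 2859 reads in WT against 1702, 6 and 116 in Foxm1 HET. Pole2, the second subunit of polymerase epsilon, had 1506, 0 and 2251 reads in WT against 234, 0 and 599 in Foxm1 HET, while its partner Pole had 5179, 979 and 2 and then 344, 645 and 4513. In WT library 3 the message for Pole2 was thus at 124 TPM with Pole at 0.0262 TPM.

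The sliding clamp and its loader were 1 higher and 5 lower and had a median log2 fold change of -2.06. Pcna, the clamp itself, was read in every library, at 65.9, 120 and 25.7 TPM in WT against 97.4, 8.26 and 21.4 TPM in Foxm1 HET. Rfc3, a loader subunit, had 19, 9538 and 11 reads in WT against 867, 10 and 71 in Foxm1 HET, so WT library 2 alone carried its level of 792 TPM, the highest of any replication gene in any library. Rfc2 was at 128, 35.8 and 0.123 TPM in WT against 60.2, 0 and 141 TPM in Foxm1 HET. All 5 loader subunits reached 10 reads in WT library 1 and Foxm1 HET libraries 1 and 3.

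The genes of RPA, the complex that coats single-stranded DNA, and of lagging strand maturation were 2 higher and 3 lower of 5 and had a median log2 fold change of -1.77. Rpa1, the large RPA subunit, had 2360, 3 and 0 reads in WT against 61, 0 and 1106 in Foxm1 HET, with 20.09% of its exon bases inside another gene of the count table. No RPA subunit reached 10 reads in WT library 3 or Foxm1 HET library 2, and all 3 did in WT library 1 and Foxm1 HET libraries 1 and 3. Lig1, the ligase that joins Okazaki fragments, was read in every library, with 4947, 280 and 1070 reads in WT against 17539, 3686 and 973 in Foxm1 HET, or 152, 8.03 and 28.3 TPM against 410, 158 and 25.6 TPM. Its libraries overlapped between the genotypes. Fen1, the flap nuclease that trims the fragments, cannot be read firmly, since 76.71% of its 50-base stretches also occur in transcripts of other genes.

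**Figure D5:**
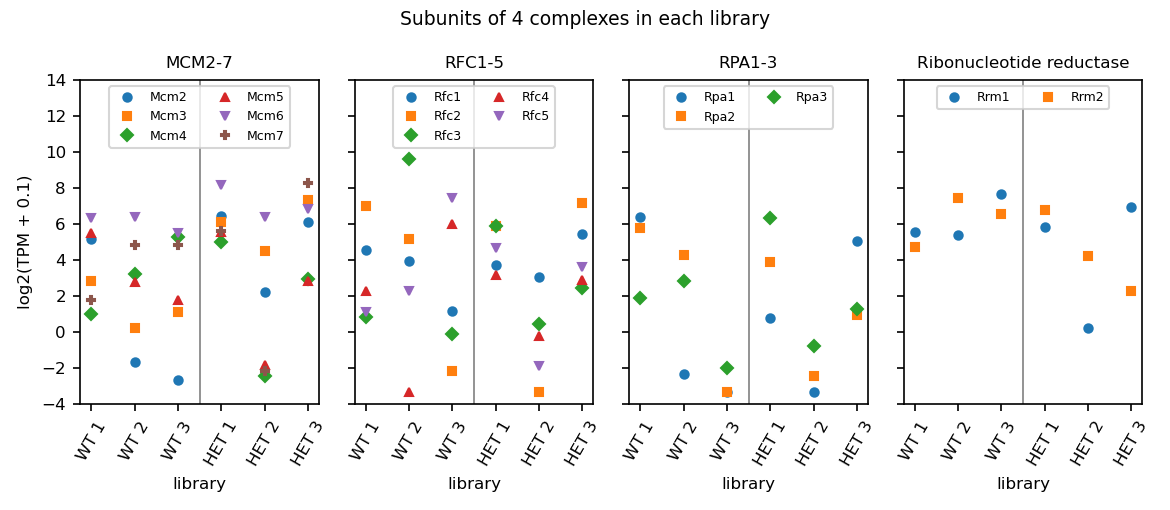
Level of each subunit of MCM2-7, RFC1-5, RPA1-3 and ribonucleotide reductase in each library, as log2(TPM + 0.1); the vertical line separates WT (left) from Foxm1 HET (right). Subunits of a complex spread widely within a library, and all RPA subunits lie low in WT library 3 and Foxm1 HET library 2.

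The genes of deoxynucleotide supply were 1 higher and 2 lower and had a median log2 fold change of -1.42. Ribonucleotide reductase, the enzyme that makes deoxynucleotides, was the only 1 of the 12 complexes examined with every subunit at 10 reads in every library. Rrm1, its large subunit, had 1756, 1644 and 8705 reads in WT against 2796, 29 and 5206 in Foxm1 HET. Rrm2, its S phase subunit, had 539, 3714 and 2177 reads in WT against 2922, 270 and 112 in Foxm1 HET, and 21.28% of its exon bases lie in another gene of the count table. Both genes overlapped between the genotypes, and Tyms, thymidylate synthase, ranged from 3 to 3112 reads in WT and from 260 to 2164 in Foxm1 HET. Over the libraries, 9, 4 and 1 of the 12 complexes were complete in WT against 12, 1 and 10 in Foxm1 HET.

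The genes of fork protection and the replication checkpoint held the largest fitted differences, 3 higher and 2 lower of 5 (median log2 fold change 3.78). Timeless (chromosome 10, 128232063 to 128252941, plus strand, 30 exon blocks), which with Tipin steadies the fork, had 3, 0 and 1 reads in WT against 174, 2526 and 475 in Foxm1 HET. How many of all genes reached 10 reads in a single genotype only was not counted. Among the replication genes, Timeless alone had at least 10 reads in all Foxm1 HET libraries and in no WT library, and 0 had the opposite. Timeless thus entered the test through its reads in Foxm1 HET alone. Over all reads it was at 0.062 CPM in WT, from 4 reads, and at 48.23 CPM in Foxm1 HET, a ratio of 779 with a 95% interval of 304 to 2860 (exact binomial) that covers counting error only and leaves out the spread between libraries. On the log2 CPM scale it was -2.87 ± 0.71 in WT and 4.78 ± 3.38 in Foxm1 HET (SD, n = 3 each).

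The fitted log2 fold change of Timeless was 10.89 ± 3.23 (SE) with an adjusted p of 0.11 in the quasi-likelihood test of edgeR (Benjamini-Hochberg), and with so few WT reads its size depends on the prior count. It ranged from 6.87, without Foxm1 HET library 2, to 11.88 when a library was left out, and it was 2.7 in limma on the normalized table. DESeq2 gave it no adjusted p. Tipin, the partner protein, had 75, 1 and 0 reads in WT against 1059, 3 and 799 in Foxm1 HET, so in Foxm1 HET library 2, where Timeless was highest at 84.3 TPM, Tipin was at 0.373 TPM. The genotypes overlapped for Tipin on the log2 CPM scale and did not overlap on the normalized table, where Tipin was at 2.5, 0.87 and 0.16 in WT against 6.11, 3.05 and 5.28 in Foxm1 HET. The 3.05 of Foxm1 HET library 2 came from 3 reads and the 2.5 of WT library 1 from 75.

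Etaa1 (chromosome 11, 17938749 to 17953875, minus strand, 6 exon blocks), which activates the ATR kinase at RPA-coated DNA, had 20, 8 and 1 reads in WT against 165, 1269 and 616 in Foxm1 HET. Its log2 CPM was -1.34 ± 1.39 in WT and 4.55 ± 2.80 in Foxm1 HET (SD, n = 3 each). As with Timeless, the highest value came from Foxm1 HET library 2, at 45.6 TPM. Etaa1 reached 10 reads in 1 WT library and in all 3 Foxm1 HET libraries, so it too entered the test through Foxm1 HET. The fitted log2 fold change was 7.32 ± 3.22 (SE) with an adjusted p of 0.675 in the quasi-likelihood test of edgeR (Benjamini-Hochberg), and leaving out a library gave 4.46, without Foxm1 HET library 2, to 8.30. It was 2.13 in limma on the normalized table, where the libraries overlapped for Etaa1, with log2 values of 0.94, 1.21 and 0.76 in WT against 0.88, 6.20 and 2.22 in Foxm1 HET. DESeq2 gave Etaa1 no adjusted p either. Clspn, which encodes the checkpoint adaptor claspin, had 497, 8276 and 1 reads in WT against 108, 1217 and 25 in Foxm1 HET and overlapped.

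Both subunits tested of CAF-1, which deposits histones behind the fork, were fitted higher, with a median log2 fold change of 2.23, and neither passed an unadjusted p of 0.05. Chaf1a had 2281, 1639 and 3 reads in WT against 3314, 3854 and 6838 in Foxm1 HET, or 74.8, 50 and 0.0845 TPM against 82.4, 176 and 191 TPM. The genotypes did not overlap for Chaf1a in TPM and did overlap on the TMM-scaled log2 CPM scale, so this gene depends on the scaling. Chaf1a also shares 49.67% of its 50-base stretches with other genes. Chaf1b had 108, 75 and 0 reads in WT against 581, 0 and 945 in Foxm1 HET.

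The genes with an E2F match in the promoter window were set beside those without, as a description. Of 14 tested with a match, 4 were fitted higher and 10 lower (median log2 fold change -0.98), and of 28 tested without a match 13 were higher and 15 lower (median -0.30). At least 10 reads in all 6 libraries were counted for 4 of 15 genes with a match and 6 of 29 without. Of the 3 genes whose genotypes did not overlap, Mcm3 has a match. Timeless was counted without a match, but its window lies inside the gene, so its promoter was not searched. Lig1 was also counted without a match, though a later window of it holds one.

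Other genes of replication, listed beside the members, gave no gene past the test either. Of 47 such genes 37 were tested, 16 being higher and 21 lower, with 0 at an adjusted p under 0.05 in edgeR's test and likewise in DESeq2 and limma, 3 at an unadjusted p under 0.05 and 4 without overlap. Hus1, a subunit of the 9-1-1 checkpoint clamp, had 109, 3 and 145 reads in WT against 1339, 9505 and 848 in Foxm1 HET, without overlap. Its log2 fold change of 6.75 had an adjusted p of 0.144 in the quasi-likelihood test of edgeR (Benjamini-Hochberg). Mcm9, a helicase of repair, had 335, 5 and 10284 reads in WT against 110, 4 and 108 in Foxm1 HET. Rif1, a regulator of replication timing, had 67, 2823 and 982 reads in WT against 1477, 14438 and 1853 in Foxm1 HET. For Hus1 and Rif1, as for Timeless and Etaa1, Foxm1 HET library 2 was the highest of the 6.

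Among 19 genes of the E2F, RB and DREAM regulators, 17 were tested, 6 higher and 11 lower, with 0 at an adjusted or unadjusted p under 0.05 in edgeR's test, 1 (Foxm1) at an unadjusted p under 0.05 in DESeq2 and 0 in limma-voom, and 2 without overlap, both lower in Foxm1 HET and 1 of them Foxm1 itself. E2f4, a repressor E2F, had 79, 2570 and 302 reads in WT against 6368, 183 and 19620 in Foxm1 HET. Among 16 markers of cycling cells outside the members, 14 were tested, 6 higher and 8 lower, again with 0 at either threshold in edgeR's test and in limma-voom and 1 (Ccnb1) at an unadjusted p under 0.05 in DESeq2, and with 1 gene higher and 2 lower without overlap. Over all genes tested, 8.68% did not overlap, 4.12% being higher and 4.55% lower in Foxm1 HET, and DESeq2 gave 10.1% at an unadjusted p under 0.05. The counts of both lists should be read beside these shares. Mki67, the proliferation antigen Ki67, had 5476, 1011 and 13404 reads in WT against 1717, 6190 and 11308 in Foxm1 HET and overlapped. Ccna2, cyclin A2, had 6860, 3406 and 17208 reads in WT against 5644, 141 and 3471 in Foxm1 HET, and was lower in Foxm1 HET without overlap on the TMM-scaled log2 CPM scale. In reads and with scaling by library size only, Foxm1 HET library 1 lay above WT library 2, so the separation of Ccna2 depends on the scaling. Ccnb1, cyclin B1, had 258, 686 and 195 reads in WT against 8, 0 and 141 in Foxm1 HET and was also lower without overlap. Ccne1, cyclin E1, had 10, 1 and 0 reads against 74, 9 and 237 and was higher without overlap. The summed level of the cycling markers was 806 to 1630 TPM in WT against 307 to 965 TPM in Foxm1 HET, and their part in the levels of the replication genes was not tested.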

How the data were processed

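RNA-Seq libraries of sorted LT-HSCs, 3 WT and 3 Foxm1 HET, were grouped by the labels' genotype field. The authors trimmed single reads, aligned them to GRCm38 (mm10) with STAR 2.7.2b and deposited raw read counts per gene. The counting program and its use of strand are not given in the sources used here. The authors also deposited a log2 normalized table, in which genes rank within a library like counts per gene length, and limma is named in the submitters' processing notes without a role. The labels and the methods name different library kits, and the methods give the RNA yield of the sorted LT-HSCs in nanograms.

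Counts were tested with edgeR 4.0.16 in R 4.3.3, after its default filter on low counts and TMM scaling, with the quasi-likelihood test, and p-values were adjusted by Benjamini-Hochberg over the 8195 genes left. A gene counted as not overlapping where all 3 libraries of a genotype lay above the other 3 on log2 CPM with a prior count of 2, and it was compared by a two-sided exact permutation test. TPM was computed from the counts and the deposited gene lengths. Alternatives used DESeq2 1.42.0, limma 3.58.1 (voom, and the normalized table), other scalings and filters, and each library left out. The fits were first tried on simulated data with less spread between libraries than these. That trial does not show how the fits perform at the spread found here. Labels do not say that the libraries came from separate mice beyond their numbers, so p-values measure the spread between these samples, and counting intervals cover counting error only.

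The members and gene lists were chosen with earlier results of these data known. Genes named with values are those past an adjusted or unadjusted p of 0.05, those not overlapping, the 2 of highest mean TPM per role, members under 10 reads in every library, the 3 of smallest p per other list, and Foxm1. Other genes were named after their values were seen.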

Additional observations from a re-analysis of the deposited data

How the results depend on the processing

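The count of replication genes with an adjusted p under 0.05 was 0 in every setting tried, and the log2 fold changes of Mcm3, Timeless and Etaa1 were positive in every setting that gave one, though far smaller on the normalized table for Timeless (2.7 beside 10.89) and Etaa1 (2.13 beside 7.32), and 3.94 for Etaa1 without both WT replicate 3 and Foxm1 HET replicate 2. In DESeq2 the count leaves out genes without an adjusted p, among them Timeless and Etaa1. The adjusted p of Timeless ran from 0.0511 with RLE scaling to 1 with the replicate block or limma-voom. The unadjusted count of 2 became 1 with library size scaling (310 of 8195 over all genes) and with the replicate block (108 of 8195). The count was also 1 with limma-voom (271 of 8195) and with at least 10 reads in every library (11 genes tested, 157 of 2516). It was 3 with DESeq2 (829 of 8195) and on the normalized table (576 of 12179). Without WT replicate 1 (615 of 9435) or Foxm1 HET replicate 3 (433 of 8998) it was 3 too. The count of genes that did not overlap, 3, became 5 with library size scaling (8.0% of all genes), where Mcm6 and Chaf1a were added, and 7 on the normalized table (9.6%), where Etaa1 was lost and Mcm6, Chaf1a, Orc6, Gmnn and Tipin were added. It ran from 5 to 12 when a library was left out, with 12 without Foxm1 HET replicate 2 (21.6% of all genes) and 10 without WT replicate 1 (21.1%), the share of all genes being 15.0% to 21.6% over these settings, and it was 19 of 52 without both WT replicate 3 and Foxm1 HET replicate 2, when 36.5% of all genes did not overlap. Leaving out both was chosen after seeing the data. The cause of these moves was not tested, though fewer libraries make overlap less likely by construction. Mcm3 and Timeless did not overlap in any setting that tested them, and Mcm3 kept a log2 fold change of 3.71 to 5.05. On the normalized table, values at few or no reads differ by library. Gmnn at 0 reads was 0.13 to 0.16 in WT and 0.18 in Foxm1 HET library 2. Orc6 was 2.45 from 2 reads in Foxm1 HET library 2, beside 2.12 from 71 reads in WT library 1. In reads the genotypes were not separated for Gmnn, Orc6 or Tipin.

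The median log2 fold change ran from -0.69 to 0.77 over all settings. It was positive with library size scaling (0.01, beside 0.10 for all genes), limma-voom (0.33 beside 0.26) and without WT replicate 1 (0.77 beside 0.25). It was also positive without WT replicate 3 (0.02 beside 0.15) and without both libraries (0.30 beside -0.01). The difference in genes detected, 3.33, ran from -2.50 without Foxm1 HET replicate 1 to 13.5 without Foxm1 HET replicate 2, and was also negative without WT replicate 3 (-2.17) and without Foxm1 HET replicate 3 (-1.0). Over all genes, the 27 adjusted calls became 10 with RLE, 7 with library size, 0 with at least 10 reads in every library, 0 with the replicate block, 194 with DESeq2, 4 with limma-voom, 0 on the normalized table and 0 to 29 with a library left out. Correlations of the deviations of same-numbered libraries were 0.016, -0.025 and -0.069. With so few libraries and so wide a spread, they cannot show whether the replicate numbers mark pairs. The study collected mice in pairs, and no source used here ties the numbers to them. The spread between libraries, with a median SE of 2.66, limits what could be seen in any gene.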

Other observations

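Sequence shared with other genes limits some of the replication genes. More than 20% of the 50-base stretches of Orc2, Mcm7, Gins2, Fen1 and Chaf1a also occur in GENCODE transcripts of another gene, from 23.27% for Mcm7 to 76.71% for Fen1. For Gins2, 65.43% are shared with its neighbour Gse1. More than 20% of the exon bases of Rpa1 (20.09%) and Rrm2 (21.28%) overlap another gene of the count table. Neither Mcm3, with 0.0% of its stretches shared, nor Timeless, with 2.38%, nor Etaa1, with 5.66%, is among them.

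The library in which a replication gene was highest was spread over both genotypes. Among the 50 genes tested, TPM was highest in WT libraries 1 to 3 for 10, 9 and 8 genes and in Foxm1 HET libraries 1 to 3 for 11, 3 and 9 genes. The 3 genes highest in Foxm1 HET library 2 were Prim1, Timeless and Etaa1. Foxm1 HET library 2 is also the library with 5 reads of Foxm1, and it had the fewest replication genes with at least 10 reads, 20 of 52.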
